A study of Homo sapiens with 2 samples.

Results

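The genes described here are 10 genes that KMT2A fusion leukemias are known to keep on, namely HOXA5, HOXA7, HOXA9, HOXA10, MEIS1, PBX3, MEF2C, LMO2, ZEB2 and JMJD1C. They were chosen by gene symbol, with earlier results of these data known. They make up 10 of the 50868 rows of the deposited expression table, with 1 row per gene. RNA-seq was performed on MOLM-13, an acute myeloid leukemia (AML) line that carries a KMT2A::MLLT3 fusion gene, to ask how overexpression of UNC5B alters adhesion and proliferation genes. The Vector group is 1 library from cells of the control construct, and the OE-UNC5B group is 1 library from cells given UNC5B. According to the methods, the UNC5B construct was lentiviral, with a CMV promoter, FLAG, mCherry and puromycin resistance, and infected cells were selected with puromycin. Whether the infected cells were a pool or 1 clone is not given in the sources used here. Both groups are the same line, so both carry the fusion.

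In healthy blood formation, HOXA genes and MEIS1 are active in stem and progenitor cells and are switched off as cells mature. A KMT2A fusion protein sits on the chromatin of these genes and recruits elongation and H3K79 methylation factors, which keeps them transcribed. HOXA9, MEIS1 and PBX3 proteins bind DNA together, and their joint activity is a known driver of this kind of leukemia.

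The table held 13715566 counted reads in Vector and 15637137 in OE-UNC5B. UNC5B itself had 0 reads in either library, so the latter library is written below as the OE-UNC5B-labelled library, and each direction given below rests on the labels. Of the myeloid marker genes listed for the line, 13 of 16 had at least 10 reads, with CD33 at 1775 and 2299 reads, while CD34 was at 0 in both libraries. The summed level of these 16 markers was 9663.5 CPM (reads scaled to library size) in Vector and 5078.9 in the OE-UNC5B-labelled library. LYZ (51742 and 23700 reads), PRTN3 (33387 and 13614 reads) and MPO (3363 and 1553 reads) were at least 2-fold lower there. Of the 13 markers with at least 10 reads, 7 were higher there, among them PTPRC (1592 and 3102 reads), and the median log2 fold change was 0.01. Markers of other cells were few. Endothelial markers summed to 5 and 5 reads with KDR and CDH5 at 0, HEK293T markers to 14 and 4 reads with KRT8 and EPCAM at 0, and fibroblast markers to 143 and 19 reads, of which COL3A1 held 108 and 6. B lymphoid markers summed to 4 and 14 reads and erythroid and megakaryocytic markers to 16 and 10. The part that any of these shifts has in the values below was not tested. These are bulk libraries, in which a change in the share of cells and a change of RNA per cell cannot be told apart.

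All 10 genes were detected in both libraries, and each had a higher scaled count in the OE-UNC5B-labelled library than in Vector. LMO2 and MEF2C differed most, by 2.94-fold and 2.49-fold. MEIS1, JMJD1C and PBX3 differed by 1.86-fold, 1.77-fold and 1.64-fold. HOXA9, ZEB2, HOXA5, HOXA7 and HOXA10 lay between 1.08-fold and 1.38-fold. The point values of the HOXA genes and ZEB2 were thus smaller than those of the HOX cofactors, LMO2, MEF2C and JMJD1C. With 1 library per group there is no replicate check and no test of the conditions. The 95% intervals below cover counting error of the reads only. Those of HOXA5, HOXA7 and HOXA9 overlapped that of PBX3, and that of HOXA5 also overlapped those of MEIS1 and JMJD1C. With the length and GC trend described below subtracted, HOXA9 was at 0.55 and JMJD1C at 0.59 on the log2 scale.

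**Figure D1:**
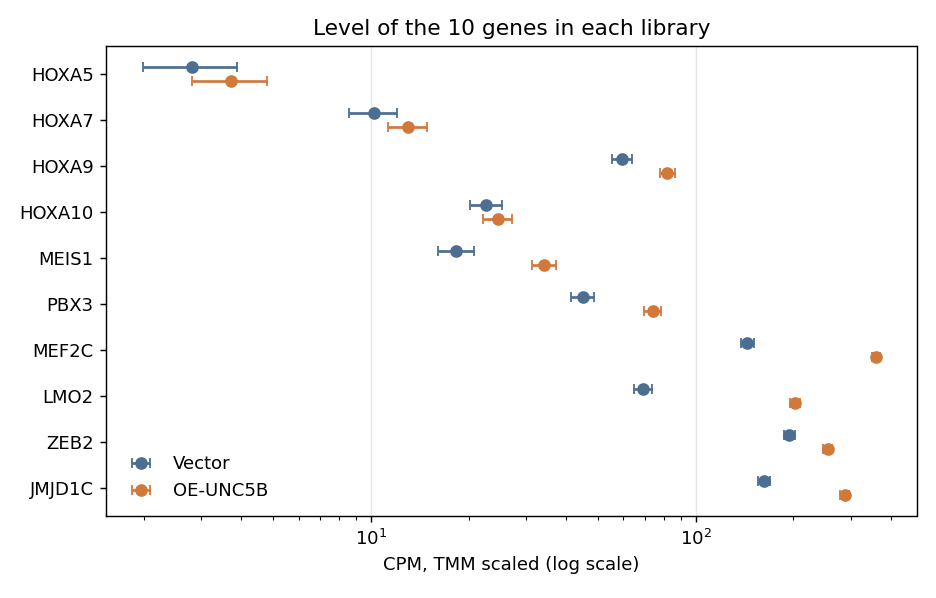
Level of each of the 10 genes in the Vector library (blue) and the OE-UNC5B-labelled library (orange), in CPM scaled with TMM factors, on a log axis. Points are the single library values and bars the exact 95% Poisson intervals of the reads. HOXA5 is lowest at 2.82 and 3.71 CPM, and each orange point lies to the right of its blue point.

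The sequence just upstream of an annotated start is given for HOXA9 and MEIS1, the central pair of this program, for MEF2C, which differed by more than 2-fold, and for JMJD1C, which holds the window densest in CpG among those of the 10 genes. Each is the run of 250 bases before a RefSeq transcript start on the strand of the gene, from the GRCh38.p14 promoter table, and none of the 4 overlaps an annotated exon. HOXA9 is at chr7:27165538-27165787 on the minus strand, MEIS1 at chr2:66434875-66435124 on the plus strand, MEF2C at chr5:88824345-88824594 on the minus strand and JMJD1C at chr10:63521891-63522140 on the minus strand. Capitals mark a match to TGATTTA, a composite HOX and PBX motif, or to TGACAG, the MEIS core motif, with the latter read as CTGTCA where it lies on the other strand.
HOXA9: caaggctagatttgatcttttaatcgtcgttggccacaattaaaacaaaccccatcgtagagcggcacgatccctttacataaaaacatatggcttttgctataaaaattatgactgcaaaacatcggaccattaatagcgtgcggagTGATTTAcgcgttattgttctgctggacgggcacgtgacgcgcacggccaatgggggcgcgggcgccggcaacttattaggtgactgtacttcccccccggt
MEIS1: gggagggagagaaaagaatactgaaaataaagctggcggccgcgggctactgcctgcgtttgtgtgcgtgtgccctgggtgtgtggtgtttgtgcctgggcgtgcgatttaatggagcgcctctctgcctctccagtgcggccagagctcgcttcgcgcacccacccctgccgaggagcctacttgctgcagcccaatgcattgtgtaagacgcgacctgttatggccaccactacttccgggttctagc
MEF2C: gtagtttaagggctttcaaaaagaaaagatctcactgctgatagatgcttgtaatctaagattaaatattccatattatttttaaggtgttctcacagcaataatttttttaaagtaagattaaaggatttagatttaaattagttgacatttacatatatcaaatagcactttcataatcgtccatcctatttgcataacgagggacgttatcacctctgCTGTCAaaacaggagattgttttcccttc
JMJD1C: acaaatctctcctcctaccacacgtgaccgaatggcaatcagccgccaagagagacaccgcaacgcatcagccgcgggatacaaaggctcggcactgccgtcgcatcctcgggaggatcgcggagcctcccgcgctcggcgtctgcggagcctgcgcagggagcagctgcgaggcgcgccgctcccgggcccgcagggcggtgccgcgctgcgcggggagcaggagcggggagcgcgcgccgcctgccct

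The table held 17 windows of 300 bases (250 before and 50 after a start) for 8 of the 10 genes, and none was matched for HOXA5 and LMO2. TGACAG, searched on both strands, occurred in 4 of the 17 windows (23.5%) and in 15.8% of all 35116 windows. Of these 4, 3 belong to MEF2C and 1 to PBX3. TGATTTA, also searched on both strands, occurred in 1 of the 17 windows, that of HOXA9 at position 149 counted from the 5′ end, and in 2.89% of all windows. These are letter matches in fixed windows and show no binding. CpG number ranged widely among the windows, also within a gene, from 1 to 32 over the 7 MEF2C windows and from 6 to 44 over the 3 JMJD1C windows. The MEF2C run printed is 1 of the 2 that overlap no exon, and both hold a TGACAG match. The printed JMJD1C window held 44 CpG, more than 95.8% of all windows, the HOXA9 window 22, the MEIS1 window 18 and the printed MEF2C window 3. The median was 18 for the 17 windows and 14 for all windows, and median GC content was 49.0% against 58.7%. These values rest on MEF2C, which has 7 of the 17 windows. Without it, the other 10 windows had a median GC content of 60.5% and 23.5 CpG, and 1 of the 10 held TGACAG.

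The HOXA genes encode homeodomain transcription factors and lie side by side on the minus strand of chromosome 7 (GRCh38). HOXA9, the best known leukemia gene of the cluster, at chr7:27162435-27175180, had 800 reads in Vector and 1303 in the OE-UNC5B-labelled library. These correspond to 59.3 and 82.0 CPM. The log2 fold change of HOXA9 was 0.47 (95% interval 0.34 to 0.60), so the OE-UNC5B-labelled library was 1.38-fold higher. HOXA10, which lies next to it at chr7:27170591-27180261 and acts in myeloid progenitors, had 306 and 391 reads, or 22.7 and 24.6 CPM. Its log2 fold change of 0.12 had an interval that included 0 (-0.10 to 0.34). The intervals of HOXA9 and HOXA10 just failed to meet, and their overlap on the chromosome is described below.

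HOXA7, at chr7:27153716-27157936, had 138 reads in Vector and 207 in the OE-UNC5B-labelled library. The difference on the log2 scale was 0.35 (0.03 to 0.67), an interval that barely left 0. HOXA5, at chr7:27141052-27143668 and the least abundant of the 4 in CPM, had 38 and 59 reads. Its log2 fold change was 0.39 with an interval from -0.21 to 1.03, so at this depth no difference in HOXA5 was detectable. HOXA5, HOXA7 and ZEB2 had nearly equal log2 fold changes, and only for ZEB2, with far more reads, was the interval narrow.

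HOXA9 held 44.3% of the 1804 reads on the listed genes of the HOXA cluster in Vector (exact Clopper-Pearson 95% interval 42.0% to 46.7%). In the OE-UNC5B-labelled library it held 46.4% of 2809 reads (44.5% to 48.3%). These intervals overlap. The share of HOXA10 was 17.0% (15.3% to 18.8%) in Vector and 13.9% (12.7% to 15.3%) in the OE-UNC5B-labelled library, with intervals that just failed to meet. The 4 genes together held 71.1% and 69.8%. HOXA9 was therefore the main transcript of the cluster in either library.

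Per kilobase of exon, the profile along the cluster had 1 peak. HOXA9 stood at 19.6 RPKM (reads per kilobase of exon, scaled to library size) in Vector and 27.0 in the OE-UNC5B-labelled library. HOXA10 followed at 6.12 and 6.63 RPKM, HOXA11 at 4.86 and 6.13, and HOXA7 at 4.24 and 5.40. HOXA2 had 0 and 1 reads, the lowest of the HOXA genes described here. HOXA11 had 175 and 260 reads, with a log2 fold change of 0.33. Of the 10 listed cluster genes outside the 4 that passed the minimum of 10 reads over both libraries, 8 were higher in the OE-UNC5B-labelled library, with a median log2 fold change of 0.54 (0.30 to 0.75 under the alternatives). The antisense RNA HOXA10-AS, with 51 and 144 reads, and the distal RNA HOTTIP, with 3 and 8 reads, were the 2 past 2-fold, and the interval of HOTTIP included 0. By contrast, the HOXB, HOXC and HOXD clusters were near silent. Their 28 genes held 13 reads in Vector and 5 in the OE-UNC5B-labelled library, and 22 of the 28 had 0 reads in both.

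**Figure D2:**
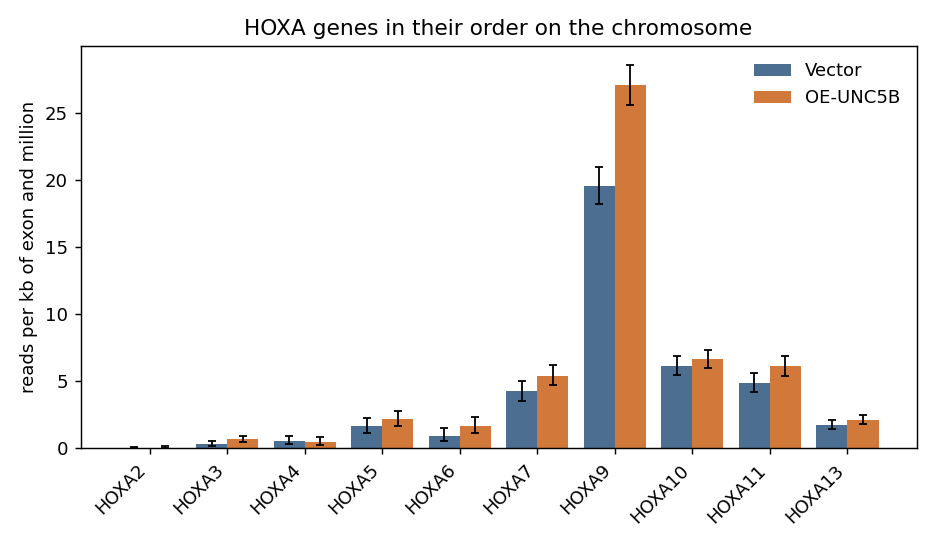
Level of the protein-coding genes from HOXA2 to HOXA13, in RPKM, in their order on the chromosome for the Vector library (blue) and the OE-UNC5B-labelled library (orange). Bars are single library values with exact 95% Poisson intervals of the reads, and HOXA9 stands above its neighbours at 19.6 and 27.0.

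Overlapping genes limit what can be said of HOXA7, HOXA9 and HOXA10, since use of strand in the counting is not given in the sources used here. An antisense RNA shares 1507 exon bases with HOXA7, 62.5% of the exon bases of HOXA7. This RNA had 4 and 5 reads, and with these added HOXA7 had a log2 fold change of 0.34 (0.03 to 0.66). The spans of HOXA9 and HOXA10 overlap on the same strand, but the genes share 0 exon bases with each other. A readthrough gene of the pair (AC004080.3) shares 397 exon bases with HOXA9 and 368 with HOXA10. This readthrough gene had 0 reads in both libraries. HOXA10-AS shares 422 exon bases with HOXA9 and 608 with HOXA10. The reads of HOXA9 and HOXA10 summed to 1106 and 1694, a log2 fold change of 0.38. With the antisense reads added, HOXA10 had a log2 fold change of 0.35 (0.15 to 0.54) and HOXA9 one of 0.53. HOXA5 lies within the span of HOXA3, which had 20 and 46 reads, and the pair summed to a log2 fold change of 0.61. The direction was thus the same with any of these sums, while the size for HOXA10 differed between them.

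MEIS1 and PBX3 encode TALE homeodomain proteins, which bind DNA beside HOXA9 and stabilise it there. MEIS1, on the plus strand at chr2:66433452-66573869, had 247 reads in Vector and 542 in the OE-UNC5B-labelled library, or 18.3 and 34.1 CPM. On the log2 scale the difference was 0.90 (0.68 to 1.12), an interval that reaches past 2-fold. PBX3, on the plus strand at chr9:125747345-125967377, had 606 and 1173 reads, or 44.9 and 73.8 CPM, with a log2 fold change of 0.72 (0.57 to 0.86). The interval of MEIS1 lay wholly above that of HOXA9, and that of PBX3 overlapped the top of it. The intervals of MEIS1 and PBX3 overlapped each other.

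The other TALE genes lay on either side of 0. Of the 5 others with at least 10 reads, 2 were higher in the OE-UNC5B-labelled library and none was past 1.5-fold, with a median log2 fold change of -0.03 that was 0.02 when scaled by library totals and 0.29 over 3 genes with FPKM and 0.1 added. PBX2, the most abundant TALE gene by deposited FPKM, had 1190 and 1664 reads (log2 fold change 0.25). TGIF2 had 188 and 305 reads (0.46) and PKNOX1 347 and 381 (-0.10). MEIS2 and MEIS3, named with their values seen as relatives of MEIS1, differed in level. MEIS2 had 214 and 193 reads (-0.39), and MEIS3 had 0 reads in both.

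MEF2C and LMO2 were the 2 of the 10 genes past 2-fold higher, where 5.15% of all 15384 tested genes were. MEF2C, a MADS box transcription factor, lies on the minus strand at chr5:88717117-88904257 and had 1946 reads in Vector and 5714 in the OE-UNC5B-labelled library. In CPM this was 144 against 359, with a log2 fold change of 1.32 (1.24 to 1.39). LMO2, a LIM domain adaptor that bridges transcription factors in blood progenitors, lies on the minus strand at chr11:33858576-33892289 and had 929 and 3218 reads. In CPM it was 68.9 against 202.4, with a log2 fold change of 1.55 (1.45 to 1.66). The interval of LMO2 lay above that of MEF2C, and both lay wholly past 2-fold. The antisense gene MEF2C-AS1 shares 469 exon bases with MEF2C and had 28 and 85 reads, and adding these left the log2 fold change of MEF2C at 1.32.

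Relatives and partners of these genes differed less. In the MEF2, LMO, ZEB and KDM3 families, 7 genes outside the 10 passed the minimum and none was past 1.5-fold, with a median log2 fold change of 0.18. MEF2D had 4691 and 5467 reads (-0.02) and LMO4 5339 and 6311 (0.00). Of the partners in the LMO2 complex, 7 passed, 5 were higher and the median was 0.20. LDB1, which LMO2 binds directly, had 1100 and 1455 reads (0.17), LYL1 936 and 1266 (0.20) and GATA2 718 and 583 (-0.54), while TAL1 and GATA1 had 0 reads in both. SSBP2, at 225 and 417 reads (0.65), was the 1 partner past 1.5-fold and is named because its value was seen.

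ZEB2, a zinc finger repressor that AML cells are known to need, lies on the minus strand at chr2:144384081-144524583. It had 2624 reads in Vector and 4059 in the OE-UNC5B-labelled library, or 194.5 and 255.3 CPM. The log2 fold change of ZEB2 was 0.39 (0.32 to 0.46), clear of 0 in reads but small. Once the length and GC trend described below was subtracted, ZEB2 stood at 0.062. Its relative ZEB1, named with its value seen, had 115 and 93 reads (-0.54). JMJD1C, a KDM3 family protein and known cofactor in AML, lies on the minus strand at chr10:63167221-63521850 and had 2194 and 4570 reads, or 162.6 and 287.4 CPM. Its log2 fold change was 0.82 (0.75 to 0.90), larger than those of KDM3A (0.18) and KDM3B (0.23). REEP3, which overlaps the JMJD1C start on the other strand but shares 0 exon bases with it, had 520 and 1210 reads (0.98).

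**Figure D3:**
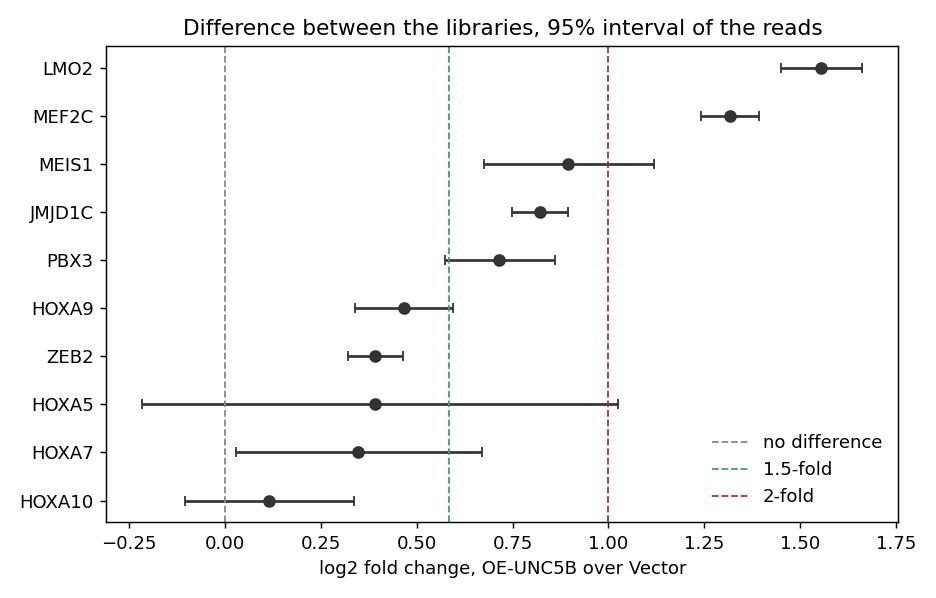
Log2 fold change of each of the 10 genes, OE-UNC5B-labelled library over Vector, with 95% intervals of the reads. Dashed lines mark no difference, 1.5-fold and 2-fold, and the intervals of LMO2 and MEF2C lie wholly past 2-fold while those of HOXA5 and HOXA10 include 0.

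Because the 10 genes were chosen with earlier results of these data known, the counts below describe them and test nothing. Of the 10 genes, 2 were at least 2-fold higher in the OE-UNC5B-labelled library and 0 were at least 2-fold lower, where 5.15% and 4.79% of all 15384 genes with at least 10 reads were. At 1.5-fold, 5 were higher and 0 lower, where 12.9% and 12.5% of all genes were. With FPKM and 1 added, 4 were, since MEIS1 was then at 0.53. The intervals of 8 of the 10 lay above 0, as did those of 25.1% of all tested genes. Such a share depends on the number of reads per gene, and the tested genes include some with as few as 10 reads. With the length and GC trend described below subtracted, ZEB2 was at 0.062. The median log2 fold change was 0.59 for the 10 genes and -0.01 for all tested genes, of which 49.4% were higher. The middle part of all genes, from the 25th to the 75th percentile, ran from -0.33 to 0.32, and 9 of the 10 genes lay above it. All 10 also passed a minimum of 50 reads, at which 2.92% of 12290 genes were 2-fold higher and 9.98% were 1.5-fold higher. At the same minimum, 2.42% were 2-fold lower and 9.09% were 1.5-fold lower.

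Other genes known as KMT2A fusion targets were also mostly higher. Of 30 listed, 25 were tested, 21 were higher in the OE-UNC5B-labelled library, and the median log2 fold change was 0.38. This median was 0.24 with no filter on low counts, and 0.24 also with the length and GC trend described below subtracted. None was past 2-fold, and at 1.5-fold 8 were higher and 1 lower. These 8, named after their values were seen, were SENP6, CPEB2, RUNX2, SKIDA1, BCL2, BMI1, CDK6 and SATB1, from 0.94 for SENP6 to 0.60 for SATB1. BCL2, the survival protein that venetoclax blocks, had 4274 and 8394 reads (0.74). CDK6, a cell cycle kinase, had 4273 and 7760 (0.62). The most abundant by FPKM did not share one direction. The membrane protein gene LAMP5 had 9696 and 8196 reads (-0.48), the cyclin gene CCNA1 3329 and 2703 (-0.54), the receptor kinase gene FLT3 4067 and 6395 (0.42) and MYB 7263 and 8725 (0.03). The 1 lower by 1.5-fold, NRIP1, had 8 and 5 reads.

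Genes known to act below HOXA9 and MEIS1 had a median log2 fold change of 0.07 over 10 tested, 6 of them higher. The kinase gene PIM1, at 1466 and 4244 reads (2.46-fold), was the 1 past 2-fold. FLT3, MYB, CDK6 and BCL2, 4 genes that this list shares with the fusion targets, are described above. All 30 listed fusion partners and cofactors of KMT2A were tested. Of these, 18 were higher, with a median of 0.11. This median was 0.04 with the length and GC trend described below subtracted, and 0.19 over 29 genes with FPKM and 0.1 added. KMT2A itself had 800 and 1153 reads (0.29) and MLLT3 191 and 299 (0.41), and reads of the fusion cannot be told from those of the normal genes. Menin (MEN1), which tethers the fusion protein, had 986 and 699 reads (-0.73) and is named because its value was seen, and AFF1, at 600 and 2961 reads (2.07), was the 1 past 2-fold. The 4 with the highest deposited FPKM summed over both libraries, MLLT1, WDR5, LEO1 and HEXIM1, lay between -0.28 and 0.06. Of 25 tested myeloid transcription factors, 11 were higher, with a median of -0.14. CEBPB was past 2-fold higher with 187 and 557 reads and CEBPE past 2-fold lower with 48 and 8. The abundant CEBPA (7227 and 7626 reads, -0.16) and SPI1 (3219 and 3228 reads, -0.23) were slightly lower, and CEBPG was higher (1977 and 4199 reads, 0.85).

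**Figure D4:**
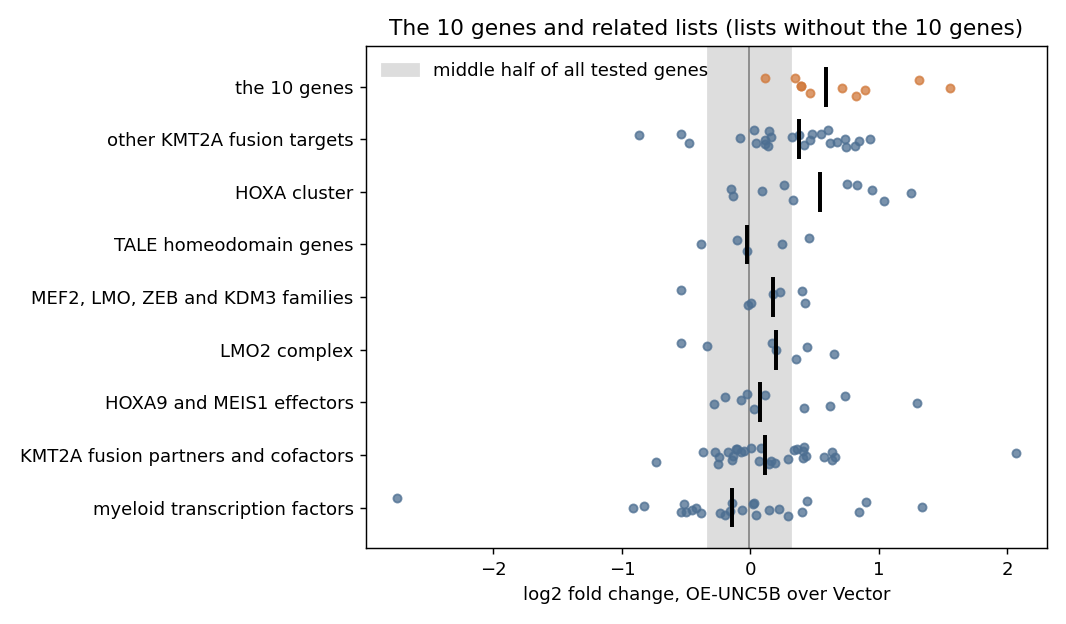
Log2 fold change, OE-UNC5B-labelled library over Vector, of the 10 genes (orange) and of the tested genes of related lists without the 10 (blue). Black bars are medians, from 0.59 for the 10 genes to -0.14 for myeloid transcription factors, the grey band spans the 25th to 75th percentile of all tested genes (-0.33 to 0.32), and points are spread vertically only to be seen.

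Levels between genes can be compared only per length, and the length behind the deposited FPKM (reads per kilobase of gene model, scaled to library size) is not the exon length. It came to between 1.15 times (HOXA5) and 3.39 times (MEF2C) the GENCODE 44 exon length for the 10 genes. Both scales are therefore given. By FPKM in Vector, LMO2 was highest at 13.3, followed by HOXA9 at 9.82 and JMJD1C at 9.70, whose intervals overlap, then PBX3 at 7.11 and ZEB2 at 4.68. MEF2C at 3.56 and HOXA7 at 3.27 did not differ beyond their counting intervals. HOXA10 at 2.44, HOXA5 at 1.40 and MEIS1 at 0.914 were lowest, the last 2 not separated. In the OE-UNC5B-labelled library, the FPKM order ran LMO2 (40.4), JMJD1C (17.7), HOXA9 (14.0), PBX3 (12.1), MEF2C (9.17), ZEB2 (6.35), HOXA7 (4.30), HOXA10 (2.74), HOXA5 (1.90) and MEIS1 (1.76), and only the intervals of the last 2 overlapped. Between the libraries 6 of the 10 kept their FPKM rank.

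By exon length LMO2 was again highest, and much of the order below it differed. In RPKM over exons, LMO2 was highest at 23.8 in Vector and 69.9 in the OE-UNC5B-labelled library, above 87.0% and 96.6% of all tested genes. MEF2C moved from rank 4 at 12.3 RPKM to rank 2 at 30.6, above 75.4% and 90.9% of tested genes. HOXA9 stood above 84.2% and 89.5%. MEIS1, at 1.67 and 3.12 RPKM, and HOXA5, at 1.64 and 2.16, were lowest, and their intervals overlapped in Vector alone. Within either library, 3 of the 10 had the same rank by FPKM and by exon length.

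Long genes were higher in the OE-UNC5B-labelled library across the table, which touches several of the 10. The median log2 fold change over protein-coding genes was -0.20 in the quartile with the shortest exon length and 0.16 in the quartile with the longest. It was 0.13 in the quartile of lowest GC content and -0.16 in that of highest. MEIS1, MEF2C, ZEB2 and JMJD1C are in the longest quartile. The 4 HOXA genes are in the shortest or the next. With a trend on length and GC content subtracted, which was decided on once the data had been seen, ZEB2 was at 0.062, JMJD1C at 0.59, MEF2C at 1.11 and LMO2 at 1.67, and the median of the 10 was 0.57. ZEB2 thus lay near that trend, and LMO2 and MEF2C lay far above it.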

How the data were processed

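RNA of MOLM-13 cells was measured by RNA-seq in 1 library per group, Vector and OE-UNC5B, and groups were taken from the labels. Deposited by the authors were raw counts of reads for each gene, without normalization, and FPKM values. The submitters' processing notes name HISAT2 2.0.4, StringTie 1.3.0, bcl2fastq 2.19 and GRCh38, without their roles. Use of strand is not given in the sources used here.

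The 10 genes and all gene lists were chosen with earlier results of these data known. Counts were scaled over the whole table with TMM (edgeR 4.0.16, R 4.3.3; factors 0.984 and 1.02). The filter was a sum of at least 10 reads, which left 15384 tested genes, and 0.5 reads were added before log2. With 1 library per group, called means past 2-fold or 1.5-fold. Intervals are 95% Clopper-Pearson (fold, share) or Poisson (level) intervals of the reads (scipy 1.17.1). Reads are not independent molecules, so they cover counting error only. A count of 0 allows up to 3 reads, or 0.222 CPM in Vector and 0.189 CPM in the OE-UNC5B-labelled library. Exon length, GC content and overlaps were read from GENCODE 44, which holds 49659 of the 50868 identifiers. Named genes were the 10, UNC5B, overlapping genes, list genes past 2-fold and the most abundant of a list by FPKM. Other relatives, partners and markers were named with their values seen. The alternatives used DESeq2 1.42.0 size factors, library totals, FPKM with 0.1 or 1 added, 2 reads added, other filters, protein-coding genes alone, pooled overlapping genes and the length and GC trend. The procedure was tested on simulated counts that held counting error alone. Variation between libraries and a length or GC trend were not simulated. Protein sequences were not analysed here. Of the listed genes, 2 are not reported here by name.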

Additional observations from a re-analysis of the deposited data

How the results depend on the processing

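No paired analysis was possible because each group has 1 library, which also leaves no replicate to drop. Of 112 values of the 10 genes under the alternatives, 41 could not move, since filters on genes leave the fold of a gene as it is and some antisense genes had 0 reads. Of the other 71, 0 changed direction, 63 moved by less than the counting interval and 8 moved beyond it. With FPKM and 1 added, MEIS1 was at 0.53 and MEF2C at 1.16. With the length and GC trend subtracted, chosen after seeing the data, MEF2C was at 1.11, LMO2 at 1.67, ZEB2 at 0.062 and JMJD1C at 0.59. The same subtraction put the list medians at 0.04 for the MEF2, LMO, ZEB and KDM3 families and 0.30 for the LMO2 complex. HOXA10 was at 0.38 with overlapping same-strand reads added and at 0.35 with antisense reads added, the latter also chosen after seeing the data. The median of the 10 was 0.72 at a minimum of 10 CPM, which HOXA5 did not pass. HOXA9 held 48.1% (Vector) and 51.5% (OE-UNC5B-labelled) of reads on protein-coding HOXA genes alone. By exon length, 3 genes in Vector and 3 in the OE-UNC5B-labelled library kept their FPKM rank.

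The background counts of genes past 2-fold (higher and lower) and past 1.5-fold (higher and lower) moved under the settings below, which change the genes tested and, for FPKM, also the unit and the value added. They were 392, 281, 1285 and 927 for FPKM with 0.1 added, and 165, 130, 730 and 561 with 1 added. They were 2886, 3079, 4404 and 4727 with no filter, 359, 297, 1226 and 1117 at 50 reads, and 238, 169, 828 and 773 at 10 CPM. Protein-coding genes alone gave 469 past 2-fold higher and 1273 past 1.5-fold higher. DESeq2 size factors put the median of all genes at 0.03, with 858 past 2-fold higher and 673 lower. Depth limits HOXA5, with 38 and 59 reads.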
